A study of Mus musculus with 16 samples.

Results

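Genes that encode cytokines of the interleukin 1, interleukin 6 and tumor necrosis factor families, or soluble and decoy inhibitors of them, were followed in the bladder body of mature and aged mice. The 10 genes were Il1a, Il1b, Il1rn, Il1r2, Il18, Il33, Tnf, Il6, Osm and Lif, and each was taken from the array when the accession of a probe mapped to its symbol. All 10 had exactly 1 probe, among 37208 genes on the array, and 9 of them were among the 26781 genes tested. Il1a was not tested because its probe was well above background on 1 of 16 arrays.

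C57BL/6 mice were studied with 1 single-color expression array each, 16 in all, hybridized with total RNA of the dissected bladder body. The mature (MAT) mice were 12 months old and the aged (AGED) mice 27 to 30 months old, with 4 mice of each sex at each age. No group received a treatment or carried a modified allele according to the labels. The comparison asks which transcripts of the bladder differ with age within each sex.

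Interleukin 1 alpha and beta are early alarm signals that act through the same receptor and switch on NF-kB, and they are held in check by the receptor antagonist (Il1rn) and by the decoy receptor (Il1r2). Tumor necrosis factor also works through NF-kB, whereas interleukin 6, oncostatin M and leukemia inhibitory factor share the receptor chain gp130 and signal through JAK kinases and STAT3. In the bladder, the urothelium, the stroma and resident or recruited immune cells are known sources of these cytokines, and interleukin 33 is stored in the nucleus of epithelial and stromal cells and released on damage.

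Signals are given on the log2 scale relative to the 75th percentile of the same array, so that a value of 0 is a spot as bright as that percentile and each unit is a factor of 2. A level of 1 gene is compared only with levels of the same gene, since probes differ in brightness for reasons other than abundance. Well above background means that the scanner software marked the spot as brighter than its local background. A gene was called when limma gave a Benjamini-Hochberg adjusted p under 0.05 over all tested genes and a change of at least 2-fold. In whole tissue, fewer cells of a type and less RNA per cell cannot be told apart.

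Between 52.4% and 68.3% of the probes were well above background on an array, with the lowest share on AGED male replicate 1, and no spot was saturated. All females lay on slide 1 and all males on slide 2, with MAT mice in the first row and AGED mice in the second row of each slide, so that sex and slide, and age and slide row, cannot be told apart. Defining markers of the labelled tissue were well above background on all 16 arrays, where they were checked. Upk1a of the urothelium had group means from 7.60 to 7.89, and Myh11 of smooth muscle had group means from 6.18 to 6.39. Directions of change follow the sample titles. They run opposite to the study's list of leading genes, in which S100a9, higher in AGED mice by the titles, stands among the genes that fell with age.

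Promoter windows from RefSeq (GRCm38.p6) are shown for the genes on which the results turn, which are Il1b and Il6, whose signals varied widely and in parallel over the arrays, and Il33, which had the largest change relative to its spread. Each runs from 250 bases before to 50 bases after an annotated transcription start, 5′ to 3′ on the strand of the gene. They lie at chr5:30012864-30013163 on the plus strand (Il6), chr2:129371090-129371389 on the minus strand (Il1b), and chr19:29924863-29925162 and chr19:29945540-29945839 on the plus strand (the upstream and the downstream start of Il33). Capitals mark matches to the NF-kB consensus or to the AP-1 motif TGANTCA, searched on both strands.
Il6: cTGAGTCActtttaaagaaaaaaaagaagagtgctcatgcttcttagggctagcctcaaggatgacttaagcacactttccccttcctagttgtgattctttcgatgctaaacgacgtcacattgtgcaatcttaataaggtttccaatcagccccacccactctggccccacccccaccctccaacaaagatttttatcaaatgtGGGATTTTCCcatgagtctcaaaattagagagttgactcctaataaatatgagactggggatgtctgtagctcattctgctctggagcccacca
Il1b: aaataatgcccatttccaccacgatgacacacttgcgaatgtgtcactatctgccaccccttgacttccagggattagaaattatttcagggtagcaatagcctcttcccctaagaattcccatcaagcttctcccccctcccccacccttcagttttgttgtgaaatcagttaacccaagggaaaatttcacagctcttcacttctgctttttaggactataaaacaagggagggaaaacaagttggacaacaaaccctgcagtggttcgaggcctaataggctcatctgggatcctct
Il33, upstream start: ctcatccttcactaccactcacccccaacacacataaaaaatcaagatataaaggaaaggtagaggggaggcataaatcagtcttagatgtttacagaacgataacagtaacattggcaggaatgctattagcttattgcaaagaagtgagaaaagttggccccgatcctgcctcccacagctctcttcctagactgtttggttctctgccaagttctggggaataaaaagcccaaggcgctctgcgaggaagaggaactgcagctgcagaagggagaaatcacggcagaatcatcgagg
Il33, downstream start: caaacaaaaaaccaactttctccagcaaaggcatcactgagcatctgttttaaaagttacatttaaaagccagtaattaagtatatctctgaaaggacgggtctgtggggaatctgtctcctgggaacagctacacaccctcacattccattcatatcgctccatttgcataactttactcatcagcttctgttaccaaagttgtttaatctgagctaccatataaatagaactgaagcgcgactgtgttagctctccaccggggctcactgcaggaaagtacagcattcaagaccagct

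The Il6 window held the AP-1 match TGAGTCA with its first base 249 bases before the start and the NF-kB match GGGATTTTCC with its first base 44 bases before the start. No match was found in the windows of Il1b and Il33. Of all 32851 promoter windows of the same length, 8.46% held the NF-kB consensus and 7.81% the AP-1 motif. Windows were found for 9 of the 10 genes, 12 windows in all, of which 2 held the NF-kB consensus (Il6 and Lif) and 4 the AP-1 motif (Il1a, Il1rn, Il6 and Lif). A match describes the letters of the window and says nothing of binding.

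Across the family, Il1b, Il1r2, Il18 and Il33 were well above background on all 16 arrays. Il1rn and Il6 were so on 13 arrays each, Tnf on 11, Osm on 7 and Lif on 6. Osm and Lif passed the filter of 4 arrays only through the MAT females, the group where they were most often well above background. None of the 9 tested genes was called with age in either sex, against 0.851% of all tested genes in males and 0.190% in females. In males, 5 of the 9 had a higher and 4 a lower mean in AGED mice (Osm and Lif among the latter, with no AGED male well above background), with a median log2 change of 0.06. In females, 7 had a higher and 2 a lower mean, with a median log2 change of 0.60. The 2 lower ones were Osm and Lif, for which the filter favored a lower mean in AGED females. Over all tested genes the median log2 change was 0.00145 in males and -0.00626 in females. With 4 mice a group, the number of arrays limits the precision of every value below.

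**Figure D1:**
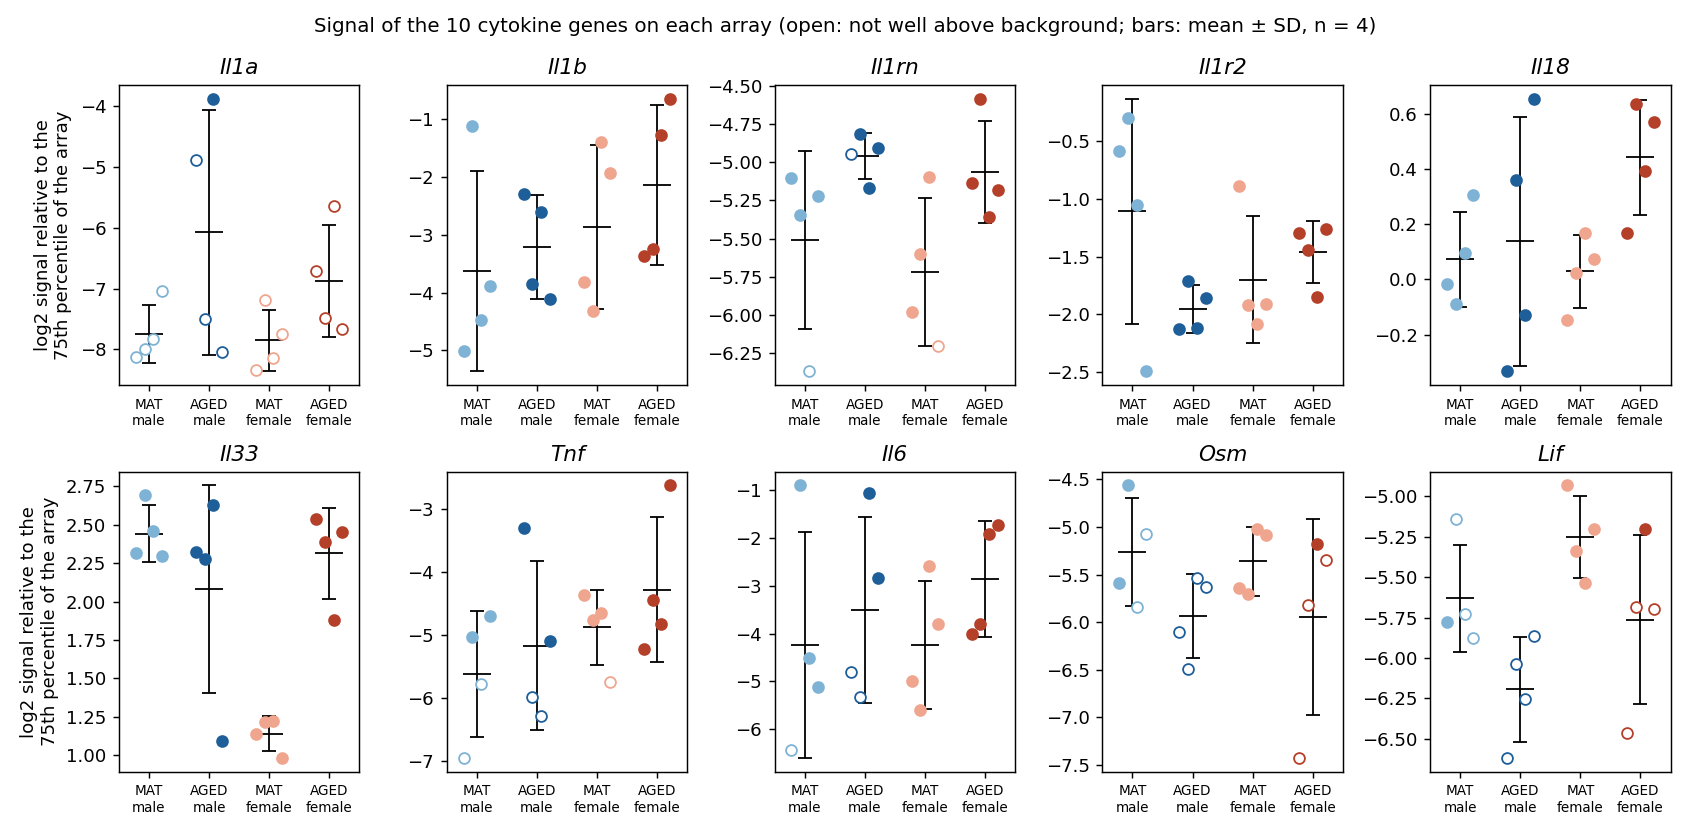
The log2 signal of the 10 cytokine genes, relative to the 75th percentile of each array, in the 4 groups (4 mice each). Filled points were well above background and open points were not, bars give mean ± SD, each panel has its own scale, and the MAT females form a tight cluster between 0.98 and 1.22 in the Il33 panel.

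Il33, an alarmin of the interleukin 1 family, gave higher signals in all AGED females than in any MAT female. In MAT females the log2 signal was 1.14, 1.22, 1.22 and 0.98 (replicates 1 to 4), and in AGED females it was 2.53, 2.39, 1.88 and 2.45. In MAT males it was 2.32, 2.70, 2.46 and 2.30, and in AGED males 2.32, 2.28, 2.63 and 1.10. The female groups did not overlap, while in males 3 of the 4 AGED mice lay close to the MAT range and replicate 4 lay near the MAT females.

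The group means of Il33 ran from 2.44 ± 0.18 in MAT males through 2.31 ± 0.30 in AGED females and 2.08 ± 0.68 in AGED males to 1.14 ± 0.11 in MAT females (SD, n = 4). The first 3 of these groups overlapped each other. MAT females lay below all MAT males and all AGED females, but AGED male replicate 4 fell among them.

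In females the log2 change of Il33 with age was 1.17 (SE 0.26, 95% interval 0.62 to 1.72), which is 2.25-fold. It did not pass the threshold after adjustment over all genes (limma, Benjamini-Hochberg adjusted p = 0.0920, unadjusted p = 0.000407). The exact permutation test of the 4 AGED against the 4 MAT females gave a two-sided p of 0.0286, which is the smallest that 4 against 4 can give, and 5.04% of all tested genes were likewise higher without overlap. Fitted within each sex alone, the same change was called (limma adjusted p = 0.0250). It was also called with AGED male replicate 4 left out (limma adjusted p = 0.0130), which changes only the shared estimate of the spread. It stayed uncalled in 15 of the 16 fits with an array left out (limma adjusted p up to 0.306) and under 13 of the 17 other alternatives.

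In males the log2 change of Il33 was -0.36 (SE 0.26, limma adjusted p = 0.510), and without AGED male replicate 4 it was -0.03. The age change in males minus that in females was -1.53 (SE 0.37), with an unadjusted p of 0.000801 and a limma adjusted p of 0.119, in a comparison in which 0.149% of all tested genes were called. Between the sexes, MAT males were higher than MAT females by 1.30 (SE 0.26, 2.47-fold, limma adjusted p = 0.0549) without overlap, as were 14.0% of all tested genes. In AGED mice the difference between males and females was -0.23 (SE 0.26, limma adjusted p = 0.607), and without AGED male replicate 4 it was 0.10.

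The cell types that can hold interleukin 33 were followed through their markers. The summed log2 level of 9 urothelium markers ranged from 9.07 to 9.27 in MAT females and from 9.01 to 9.40 in AGED females, that of 6 fibroblast markers from 8.68 to 8.89 and from 8.18 to 9.04, and that of 5 endothelium markers from 2.48 to 3.0 and from 2.67 to 2.79. These ranges overlapped in each case. None of the 20 markers, all of which were tested, was called in females, where 0.190% of all tested genes were. Foxa1, a urothelium marker, was higher without overlap in AGED females (log2 change 0.31, limma adjusted p = 0.493), as were 5.04% of all tested genes. The part of these cell types in the Il33 values was not tested. The means of 7 of 9 urothelium, 1 of 6 fibroblast and 2 of 5 endothelium markers were higher in AGED females. The sums weigh bright markers most, such as Dcn among the fibroblast markers, with group means from 7.60 to 7.96. Il1rl1, which encodes the interleukin 33 receptor ST2, changed by -0.20 in females and -0.29 in males on the log2 scale (limma adjusted p = 0.858 and 0.605).

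Il18, a relative of interleukin 1 that inflammasomes activate by cleavage, was also higher in AGED females without overlap, by a smaller amount. The log2 signal was -0.15, 0.02, 0.17 and 0.07 in MAT females and 0.17, 0.64, 0.39 and 0.57 in AGED females. In MAT males it was -0.02, -0.09, 0.09 and 0.31, and in AGED males -0.33, 0.36, -0.13 and 0.66. The lowest AGED female lay just above the highest MAT female, with equal values after rounding, and the AGED males spanned both sides of the MAT males. The log2 change was 0.41 in females (SE 0.19, limma adjusted p = 0.469, exact permutation p = 0.0286) and 0.06 in males (SE 0.19, limma adjusted p = 0.895). Il18bp, the secreted protein that neutralizes interleukin 18, was higher without overlap in AGED females (log2 change 0.74, limma adjusted p = 0.394). Of all tested genes, 5.04% were higher without overlap in AGED females.

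**Figure D2:**
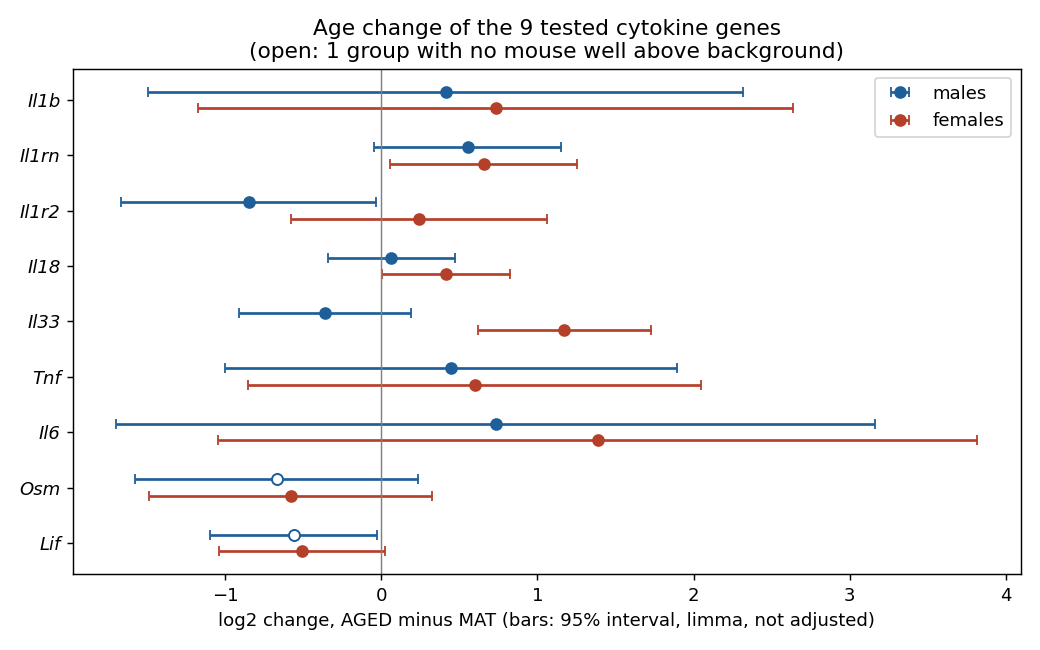
The log2 change, AGED minus MAT, of the 9 tested cytokine genes in males and in females, from the limma fit over 16 arrays, with 95% intervals that are not adjusted for the number of genes. Open points (Osm and Lif in males) rest on a group with no mouse well above background, the intervals of Il6 and Il1b are the widest, and the female Il33 interval runs from 0.62 to 1.72.

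Il1b encodes the secreted form of interleukin 1 that macrophages and neutrophils make. Its log2 signal was -5.02, -1.11, -4.48 and -3.89 in MAT males and -2.29, -3.86, -2.60 and -4.11 in AGED males. In females it was -3.81, -4.31, -1.40 and -1.94 in MAT mice and -3.37, -3.24, -1.27 and -0.64 in AGED mice. Each group held both high and low mice, and the groups overlapped widely. The log2 change was 0.41 in males (SE 0.89, 95% interval -1.49 to 2.32, limma adjusted p = 0.848) and 0.73 in females (SE 0.89, 95% interval -1.17 to 2.64, limma adjusted p = 0.844). Without MAT male replicate 1 the male value was -0.05 and without MAT male replicate 2 it was 1.25, and without AGED female replicate 4 the female value was 0.24.

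Most of the spread of Il1b lay between arrays, and little of it between spots of an array. The probe was printed as 10 spots on every array, and 11 spots flagged as outliers over the 16 arrays were left out, which can lower the SD between spots. The median SD between the spots kept was 0.125 log2 units (highest 0.540), against a pooled SD between mice of a group of 1.39. For Tnf, also printed as 10 spots and with 5 spots left out, the median SD between spots was 0.405 (highest 0.797) and the pooled SD 1.06. For Il6, printed as 2 spots, the median was 0.100 (highest 0.578) and the pooled SD 1.78. Over the 16 arrays Il6 spanned 5.54 log2 units, Il1a 4.45 (with 1 value above background), Il1b 4.38 and Tnf 4.32, whereas Il33 spanned 1.72 and Il18 0.99.

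Il1a encodes the form of interleukin 1 that keratinocytes and other epithelial cells store. Its signal was well above background only in AGED male replicate 3, where it was -3.88. The other AGED males were at -4.89, -7.51 and -8.04, the MAT males between -8.12 and -7.05, the MAT females between -8.33 and -7.19, and the AGED females between -7.66 and -5.65. No fold change is given for values at background, and the groups overlapped (exact permutation p = 0.229 in males and 0.114 in females).

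Both inhibitors of interleukin 1 were measured. Il1rn, the receptor antagonist, had log2 signals of -5.10, -5.34, -6.37 and -5.22 in MAT males and -4.95, -4.81, -5.17 and -4.90 in AGED males. In females it had -5.98, -5.60, -5.10 and -6.21 in MAT mice and -5.14, -4.58, -5.36 and -5.18 in AGED mice. In each sex 1 or more MAT mice reached the AGED range. The probe was well above background in 3, 3, 3 and 4 mice of the MAT male, AGED male, MAT female and AGED female groups. The log2 change was 0.55 in males (SE 0.28, limma adjusted p = 0.346) and 0.66 in females (SE 0.28, limma adjusted p = 0.429).

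Il1r2, the decoy receptor that binds interleukin 1 without signaling, had log2 signals of -0.58, -0.30, -1.05 and -2.5 in MAT males and -2.13, -1.71, -2.12 and -1.86 in AGED males. In females it had -0.88, -1.92, -2.08 and -1.91 in MAT mice and -1.29, -1.44, -1.85 and -1.26 in AGED mice. All MAT males except replicate 4 lay above all AGED males, and replicate 4 lay below all of them. The log2 change was -0.85 in males (SE 0.38, limma adjusted p = 0.289) and 0.24 in females (SE 0.38, limma adjusted p = 0.895). Without MAT male replicate 4, the mouse that ran against the others, the male change was -1.31 and was called (limma adjusted p = 0.0292). In the other 15 of the 16 fits with an array left out it was not called. Over all these fits the change ran from -1.31 to -0.58, with a limma adjusted p of up to 0.520. The male change minus the female change was -1.09 (SE 0.54, limma adjusted p = 0.537).

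Tnf, the founding ligand of its family, was well above background in 2, 2, 3 and 4 mice of the MAT male, AGED male, MAT female and AGED female groups. Its log2 signal was -6.95, -5.04, -5.77 and -4.70 in MAT males and -3.31, -5.98, -6.28 and -5.10 in AGED males. In females it was -4.36, -4.76, -4.66 and -5.74 in MAT mice and -5.23, -4.45, -4.82 and -2.63 in AGED mice. In each sex a single AGED mouse, male replicate 1 and female replicate 4, stood above all MAT mice, and the others lay within or near the MAT range. The log2 change was 0.45 in males (SE 0.68, limma adjusted p = 0.775) and 0.60 in females (SE 0.68, limma adjusted p = 0.828). Without AGED male replicate 1 the male change was -0.17, and without AGED female replicate 4 the female change was 0.046.

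Il6, the main inducer of the acute phase response, had the widest spread of the genes followed. Its log2 signal was -6.43, -0.90, -4.50 and -5.11 in MAT males and -4.80, -5.32, -1.05 and -2.84 in AGED males. In females it was -4.99, -5.60, -2.59 and -3.80 in MAT mice and -4.0, -3.80, -1.91 and -1.72 in AGED mice. MAT male replicate 2 and AGED male replicate 3 stood far above the rest of their groups, and the 2 highest AGED females lay above all MAT females. The log2 change was 0.73 in males (SE 1.14, 95% interval -1.70 to 3.16, limma adjusted p = 0.781) and 1.39 in females (SE 1.14, 95% interval -1.04 to 3.82, limma adjusted p = 0.736). Without AGED male replicate 3 the male change was -0.08, and without MAT male replicate 2 it was 1.85.

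The gp130 cytokines Osm, made by macrophages and neutrophils, and Lif, made by many stromal and epithelial cells, were near background. Osm was well above it in 2, 0, 4 and 1 mice of the MAT male, AGED male, MAT female and AGED female groups, and Lif in 1, 0, 4 and 1 mice. Osm had group means of -5.27 ± 0.57, -5.94 ± 0.44, -5.36 ± 0.36 and -5.94 ± 1.03 in the same order, and Lif of -5.63 ± 0.33, -6.19 ± 0.32, -5.25 ± 0.25 and -5.76 ± 0.52 (SD, n = 4). The values of the groups overlapped in both sexes. The mark itself depends on the array. The lowest signal marked as well above background lay between -6.54 and -5.99 on the arrays of MAT females and between -5.80 and -5.28 on those of AGED females, and the share of all probes so marked was 64.6% to 68.3% and 59.9% to 63.2%. Osm at -5.34 in AGED female replicate 4 was thus unmarked, while -5.64 and -5.70 in MAT females were marked.

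In males no AGED mouse was well above background for either gene, and only 2 MAT males were for Osm and 1 for Lif. No bound on the difference holds, and no fold is given. The limma adjusted p was 0.453 for Osm and 0.281 for Lif, in a comparison of signals near background. In females, where 1 AGED mouse measured each gene, the log2 change was -0.58 for Osm (SE 0.42, limma adjusted p = 0.692) and -0.51 for Lif (SE 0.25, limma adjusted p = 0.499), and without AGED female replicate 1 that of Osm was -0.084. As both genes were kept only through the MAT females, the filter itself leans these changes toward negative values, and no conclusion is drawn from them. The male values, negative as fitted, turned to 0.05 (Osm) and 0.13 (Lif) when the background was corrected by normexp.

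At an unadjusted limma p under 0.05, 2 of the 9 cytokine genes passed with a lower signal in AGED males (Il1r2 and Lif), as did 8.36% of all tested genes, and 3 were higher in AGED females (Il33, Il1rn and Il18), as were 4.61% of all tested genes. The Lif value rests on signals near background and turned positive under normexp (0.13) and under a floor on low signals (0.22), which leaves Il1r2 as the gene measured in both male groups. No cytokine gene was called in the difference of the age changes, where all but Il33 and Il1r2 had limma adjusted p values from 0.733 to 0.980. None was called between the sexes in MAT mice, where 0.164% of all tested genes were, or in AGED mice, where 3.11% were. At an unadjusted limma p under 0.05, Il33 alone passed in the difference, where 5.12% of all tested genes passed with a lower age change in males, and Il33 alone in MAT mice, where 9.52% passed with a higher value in males. In AGED mice none of the 9 passed, against 26.2% of all tested genes.

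Il1b and Il6 varied from mouse to mouse in parallel within the groups. Over the 16 arrays the Pearson correlation of Il1b with Il6 was 0.78 (Spearman 0.77), and it was 0.78 after the group means were subtracted. It is the highest of the 36 pairs among the 9 genes. Osm, well above background on only 7 of the 16 arrays, had a correlation of 0.44 with Il1b and 0.42 with Il6. After subtraction of the group means these values were 0.70 and 0.70. The second highest pair was Osm with Lif, both near background, at 0.64 (0.63 after the subtraction). Il18 and Il33, well above background on all 16 arrays, had a correlation of -0.05, and of -0.63 after the subtraction. These are descriptions over arrays that share slides, labeling and scaling, and they carry no test.

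MAT male replicate 2 illustrates the parallel course. It had the highest Il1b, Il6 and Osm signal of its group, and its Socs3 signal was 4.35 against 1.02, 1.43 and 2.26 in the other MAT males. Of the tested genes with a symbol, Socs3 was the one most like Il1b over these same arrays. Its high value beside a high Il1b is therefore no separate evidence. Socs3 is the feedback inhibitor that STAT3 induces downstream of gp130. In both female groups replicates 3 and 4 lay above replicates 1 and 2 for Il1b, Il6 and Osm. In AGED males they did so for Il6 and Osm, though no AGED male was well above background for Osm. The replicate number is also the column of the array on its slide, and the part of the slide position in these values was not tested.

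**Figure D3:**
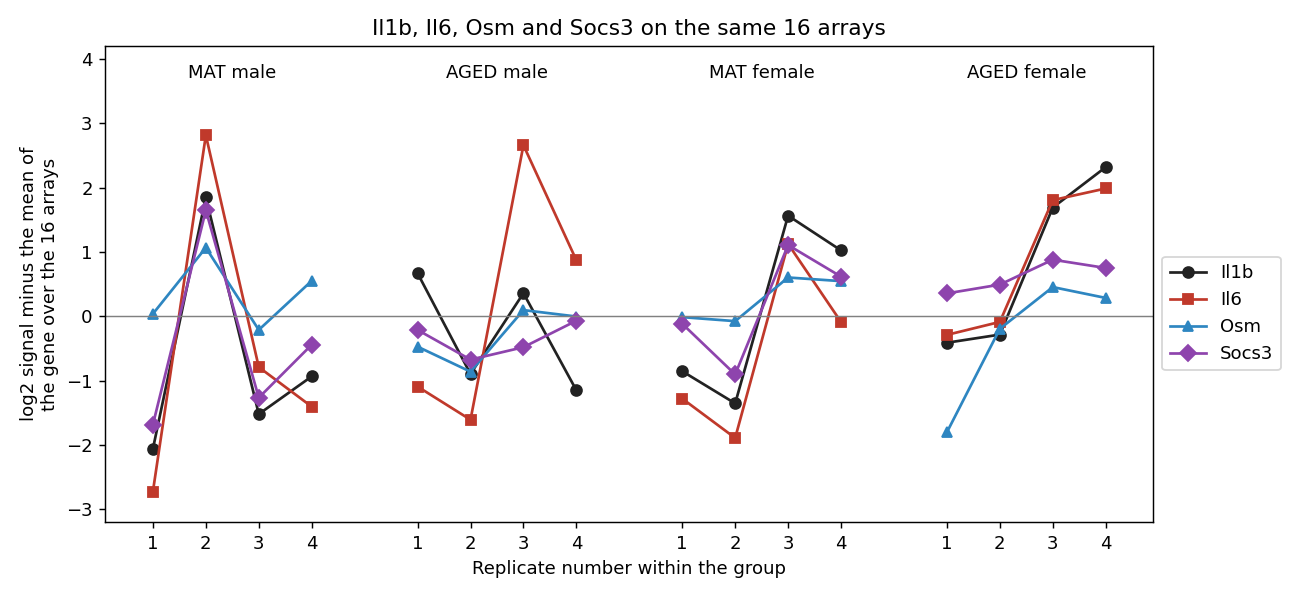
The log2 signal of Il1b, Il6, Osm and Socs3 on each of the 16 arrays, each gene minus its own mean over the arrays, by group and replicate number (replicates are joined by lines only to guide the eye). MAT male replicate 2 and replicates 3 and 4 of the female groups lie above the mean for all 4 genes except Il6 of MAT female replicate 4, which lies just below it. Osm was well above background on 7 of the 16 arrays, and Socs3 was the gene most like Il1b over these same arrays.

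The genes whose signal over the 16 arrays was most like that of each cytokine gene were listed for the 6 genes well above background on at least 12 arrays. For Il1b they were Socs3 (r = 0.86), Nfil3 (0.84) and Nr4a3 (0.84), of which Nfil3 is a basic leucine zipper repressor and Nr4a3 an immediate early nuclear receptor. For Il6 they were Xpo7 (0.83), Nfil3 (0.82) and Enc1 (0.79). For Il33 they were Ooep (0.88), Slc43a3 (0.87) and Tmem37 (0.86), and for Il18 Tmem208, Mapk11 and Prkar1a (each 0.86). For Il1rn they were Psmb4 (0.84), Mrpl12 (0.84) and Chrac1 (0.83), and for Il1r2 Rasd1 (0.74), Btbd16 (0.73) and Suclg1 (0.72). Each is a highest value out of up to 15933 tested genes with a symbol over 16 arrays. Such a pick raises the correlations, so that they are descriptions, and what unrelated genes would reach was not tested. Socs3 itself had log2 changes of 0.08 in males and 0.44 in females (limma adjusted p = 0.961 and 0.855).

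Immune cell markers are given beside these values. The summed log2 level of 9 macrophage markers ranged from 6.28 to 6.63 in MAT males, 6.46 to 7.32 in AGED males, 6.20 to 6.39 in MAT females and 6.04 to 6.86 in AGED females. The sum mostly follows Csf1r, which alone had group means from 5.52 to 6.17 and changes of 0.38 in males and -0.08 in females. Of the 9 markers, 6 had a higher mean in AGED males and 8 in AGED females, and none was called. In AGED females 3 were higher without overlap, C1qa (log2 change 0.80), C1qb (0.80) and Fcgr1 (1.72), against 5.04% of all tested genes, and in males none was. Cd163, the scavenger receptor of tissue macrophages, had a change of 1.5 in males and 0.74 in females (limma adjusted p = 0.0933 and 0.575). The 3 markers with a lower mean in AGED males were Adgre1 (-0.58), Mrc1 (-0.47) and Mertk (-0.26), with limma adjusted p values of 0.462, 0.271 and 0.495.

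Of 10 neutrophil markers 6 were tested, and 4 of these were higher without overlap in AGED males and 4 in AGED females, against 3.91% and 5.04% of all tested genes. In females these were S100a8, S100a9, Retnlg and Cxcr2, of which Cxcr2 was well above background in only 1 MAT and 2 AGED females. S100a8 and S100a9 were called in males, with log2 changes of 2.43 and 3.08 (limma adjusted p = 0.0211 and 0.0125). Camp, a granule gene, was higher without overlap in AGED males (log2 change 0.77, limma adjusted p = 0.0342, under 2-fold) and had a change of -0.40 in females (limma adjusted p = 0.428). The defining granule genes Ngp, Ltf and Mmp8 were too dim to be tested. The summed log2 level of the 6 markers ranged from 6.56 to 6.70 in MAT males, 6.54 to 6.87 in AGED males, 6.34 to 6.47 in MAT females and 6.19 to 6.75 in AGED females. The sum follows Csf3r, which alone had group means from 6.4 to 6.62, and does not show the changes of the dimmer markers.

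Lymphocyte markers had mean changes of opposite sign in the sexes, and none was called in either sex or in the difference of the age changes. All 7 tested T cell markers and all 6 tested B and plasma cell markers had a higher mean in AGED males (median log2 changes 0.52 and 0.79) and a lower mean in AGED females (-0.21 and -0.88). Their summed log2 levels ranged from 4.93 to 5.10 (T cells) and -0.22 to 3.1 (B and plasma cells) in MAT males, 5.06 to 5.44 and 0.72 to 3.85 in AGED males, 5.44 to 5.76 and 4.01 to 5.70 in MAT females, and 5.25 to 5.43 and 2.16 to 5.07 in AGED females. The T cell sum mostly follows Thy1, which alone had group means from 4.81 to 5.41 and changes of 0.04 in males and -0.30 in females. It hardly shows the changes of the dimmer T cell markers. Of 7 tested mast cell markers 2 had a higher mean in AGED males and 3 in AGED females, and none was called. Their summed level ranged from 2.56 to 4.07 in MAT males, 2.64 to 2.89 in AGED males, 2.07 to 2.95 in MAT females and 1.81 to 3.0 in AGED females, and Mcpt4, a mast cell chymase, had a change of -1.46 in males (limma adjusted p = 0.135). The part of these immune cells in the cytokine values was not tested.

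Of 13 receptors and binding proteins 12 were tested, and none was called in either sex. In males 7 had a higher mean in AGED mice (median log2 change 0.14) and in females 8 (median 0.20). Il6st, which encodes gp130, had group means from 4.11 to 4.47 and changed by 0.08 in males and -0.18 in females (limma adjusted p = 0.793 and 0.676). Tnfrsf1a, the main death domain receptor for tumor necrosis factor, changed by -0.07 and 0.32 (limma adjusted p = 0.839 and 0.483), and Il6ra, the interleukin 6 binding chain, by -0.02 and 0.26 (limma adjusted p = 0.969 and 0.692). Tnfrsf1b, the receptor of immune and endothelial cells, had log2 changes of 0.52 in males and 0.61 in females (limma adjusted p = 0.296 and 0.395). Il1r1, the signaling receptor of interleukin 1, had changes of -0.20 and 0.17 (limma adjusted p = 0.740 and 0.888).

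Of 16 related ligands of the same families, 12 had a probe and 11 were tested, and none was called. The median log2 change was 0.19 in males and 0.01 in females. Lta, which encodes lymphotoxin alpha, was higher without overlap in AGED males (log2 change 0.59, limma adjusted p = 0.145), as were 3.91% of all tested genes. In females Lta had a change of -0.13. Ltb, Tnfsf13b (the B cell factor BAFF) and Ctf1 (cardiotrophin 1), the 3 brightest, had changes of 0.54, 0.19 and -0.18 in males and -0.16, 0.21 and 0.01 in females.

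None of 12 genes for the processing and release of these cytokines was called. Their median log2 change was -0.01 in males and 0.23 in females. Casp4, which encodes caspase 11 of the noncanonical inflammasome, had changes of -0.57 in males and 0.79 in females (limma adjusted p = 0.286 and 0.298). The female groups did not overlap, and 5.04% of all tested genes were likewise higher without overlap. Nlrp1a, Adam10 and Pycard, the 3 brightest, had changes of 0.04, 0.27 and 0.23 in males and -0.05, 0.13 and 0.34 in females. Casp1, the protease that matures interleukins 1 beta and 18, had changes of -0.05 and 0.38 (limma adjusted p = 0.952 and 0.744).

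None of 20 signaling genes was called, with median changes of 0.02 in males and 0.08 in females. Ripk1, the kinase that sits at the tumor necrosis factor receptor and directs survival or cell death, had the lowest adjusted p. Its log2 signal was 0.53, 0.85, 0.63 and 0.83 in MAT males and 0.23, 0.22, -0.08 and -0.11 in AGED males. All AGED males lay below all MAT males, as they did for 1047 of the 26781 tested genes. The log2 change of -0.65 (SE 0.12) had a limma adjusted p of 0.0145 but did not reach 2-fold. In females the change was 0.11 (SE 0.12, limma adjusted p = 0.814), and the difference between the sexes had a limma adjusted p of 0.102. Rela, Jak1 and Stat3, the 3 brightest, had changes of -0.23, 0.02 and 0.04 in males and 0.06, -0.16 and 0.28 in females.

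None of 20 response genes, which NF-kB or STAT3 are known to induce, was called. Their median log2 change was -0.03 in males and 0.22 in females. The largest values were those of Junb in males, -1.09 (limma adjusted p = 0.290), and of Tnfaip6 and Timp1 in females, 1.09 and 0.99 (limma adjusted p = 0.338 and 0.413). Sod2, Cebpd and Ptges, the 3 brightest, had changes of 0.08, -0.10 and -0.02 in males and 0.25, 0.58 and -0.14 in females.

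At an unadjusted limma p under 0.05, 7.86% of all tested genes were higher and 8.36% lower in AGED males, and 4.61% were higher and 5.85% lower in AGED females. By the same rule, 1 of 12 receptors was higher in AGED males and 2 in AGED females. Of the 11 related ligands, 1 was higher in males and 1 lower in females, and of the 12 processing genes 2 were lower in males and 1 higher in females. Of the 20 signaling genes, 3 were lower in males and 2 higher in females, and of the 20 response genes 1 was lower in males and 3 were higher in females.

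**Figure D4:**
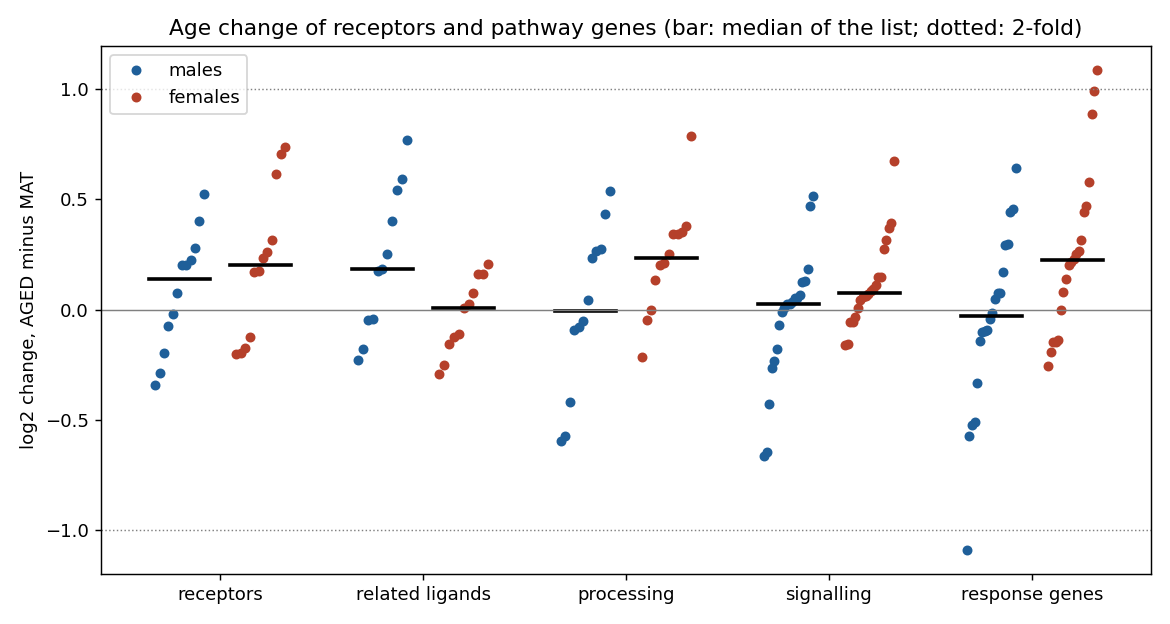
The log2 change, AGED minus MAT, of each tested gene in the 5 pathway lists (12 receptors, 11 related ligands, 12 processing genes, 20 signaling genes and 20 response genes) in males and in females. Black bars mark the median of each list, which lay between -0.03 and 0.23, and dotted lines mark a 2-fold change.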

How the data were processed

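Total RNA of 16 bladder bodies was labeled and hybridized to single-color Agilent whole-genome mouse arrays, 1 per mouse. Per the file headers, the deposited scanner files were extracted with Feature Extraction 10.7.3.1 (9.1 in the submitters' processing notes), and the authors' processed signal intensity is background-subtracted. The authors' deposited log2 table was within 0.0186 (largest median difference) of the scaled scanner values after each probe was centered, and it served as an alternative.

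Control spots and spots flagged as outliers were left out, which left 399 probe values missing. Spots of a probe were averaged, log2 intensity was scaled to the 75th percentile of each array, and probes well above background on at least 4 of 16 arrays were kept (36974 of 55681). Of several kept probes of a gene, the one brightest on average stood for it. Accessions were matched to RefSeq (GRCm38.p6) for names, which named 26582 probes, and other probes kept the name in the file. Group means were fitted in 1 model with limma 3.58.1 in R 4.3.3 (12 residual degrees of freedom). Exact permutation tests were two-sided on the difference of means, with 0.0286 as the smallest p that 4 against 4 can give. No fold is given where a group had no mouse well above background. The script was tested on simulated data.

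The cytokine genes and the gene lists were chosen with earlier results of these data known. The text names all 10 cytokine genes, for each list the genes called and the 3 brightest, and the 3 genes most like each cytokine gene that was well above background on at least 12 arrays; the other list genes and markers named were chosen after their values were seen. Alternatives were another scaling, background correction, filter, floor, probe rule or test, the deposited table, each sex alone, array weights, a trend in the spread, the replicate number as a block, and each array left out in turn.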

Additional observations from a re-analysis of the deposited data

Results flagged for a closer look

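Of 48 groups of 4 arrays looked at for a single array far from the other 3, 2 were marked (4.17%), and chance marks about 1 in 20. The gap of MAT female replicate 1 for Il1r2 was 0.859 of the range of its group, past Dixon's critical value, and without it the female log2 change was 0.51 in place of 0.24. The gap of AGED male replicate 1 for the 75th percentile of its log2 signal was 0.877 of the range of its group, and without it the male Tnf change was -0.17 in place of 0.45.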

How the results depend on the processing

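Without a left-out array, 362 changes of the cytokine genes were recomputed under 17 alternatives, of which 344 kept direction and call, 14 became called and 4 turned sign. The sign turned for Osm (0.053) and Lif (0.13) in males under normexp (offset 50, on the median spot signal), and under a floor on low signals for Lif in males (0.22) and Osm in females (0.043). With each of the 16 arrays left out, 352 changes were recomputed, of which 341 kept direction and call, 5 became called and 6 turned sign. The sign turns, with the range over all left-out arrays, were Tnf in males without AGED male replicate 1 (-0.17 to 0.82), Il18 in males without AGED male replicate 2 or 4 (-0.11 to 0.22), Il6 in males without AGED male replicate 3 (-0.084 to 1.85), Il1b in males without MAT male replicate 1 (-0.052 to 1.25), and Il33 between the sexes in AGED mice without AGED male replicate 4 (-0.41 to 0.097).

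No cytokine gene was called in the fit as reported. One (Il33) was called in females under the methods' t-test without adjustment (count 1), unadjusted limma (1), each sex fitted alone (1, limma adjusted p = 0.0250) and array weights (1, limma adjusted p = 0.00569). In the difference of the age changes Il33 was called under normexp (1, limma adjusted p = 0.0165), unadjusted limma (1) and array weights (1, limma adjusted p = 0.0266). Between the sexes in MAT mice it was called under the filter on all 4 arrays of a group (1, limma adjusted p = 0.0479), the floor (1, limma adjusted p = 0.0398), the methods' t-test before and after adjustment (1 each), unadjusted limma (1), array weights (1) and a trend in the spread (1, limma adjusted p = 0.0441). With arrays left out, 0 to 1 cytokine genes were called in males (Il1r2 without MAT male replicate 4), 0 to 1 in females (Il33 without AGED male replicate 4), 0 to 1 between the sexes in MAT mice (Il33 without AGED male replicate 1, 3 or 4), and 0 in the difference and between the sexes in AGED mice.

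Pathway genes called in males were 0 as reported, 5 under normexp, 1 under unadjusted limma and 1 (Ripk1) with no fold limit. In females they were 0 as reported, 1 under the methods' t-test without adjustment and 1 under unadjusted limma. With arrays left out they were 0 in both sexes.

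Over all genes, 228 were called in males as reported (123 to 377 with arrays left out), 51 in females (1 to 120), 40 in the difference of the age changes (6 to 269), 44 between the sexes in MAT mice (17 to 116) and 834 in AGED mice (612 to 1254). Normexp gave 756 in males (64 higher and 692 lower, against 74 and 154), 465 in the difference and 17 between the sexes in MAT mice. No filter gave 552 in males (396 higher and 156 lower), 18 in females, 7 in the difference and 1362 between the sexes in AGED mice. The floor gave 79 between the sexes in MAT mice, and the mean of probes 25 in the difference. The methods' t-test gave 496 in males, 394 in females and 610 between the sexes in MAT mice without adjustment, and after Benjamini-Hochberg adjustment 0 in males, 1 in females and 45 between the sexes in AGED mice. Unadjusted limma gave 751 in males, 506 in females, 2644 in the difference, and 690 in MAT and 1360 in AGED mice between the sexes. No fold limit gave 461 in males and 2547 between the sexes in AGED mice. Each sex fitted alone gave 11 in males and 99 in females. Array weights gave 194 in females, 253 in the difference and 610 between the sexes in MAT mice, and the trend gave 67 in the difference. The cause of these shifts was not tested.

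With the replicate number as a block, 3 genes were called in females and 12 in the difference, and no call of a cytokine or pathway gene changed. Deviations of same-numbered mice had correlations of -0.147 to 0.068, so that the numbers were not taken to pair the mice. For Il1a, Osm and Lif the signal over background limits what can be said.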
